A study of Mus musculus with 8 samples.

Results

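Retinoid signalling genes were examined in mouse cortical neurospheres, the balls that neural stem and progenitor cells form when grown in suspension. The set comprised the 3 retinoic acid receptor genes (Rara, Rarb, Rarg), the 3 retinoid X receptor genes (Rxra, Rxrb, Rxrg), the cellular retinoic acid binding proteins Crabp1 and Crabp2, and the retinoic acid hydroxylase Cyp26a1. These are 9 of the 15094 genes named in the platform's annotation, and every probe with one of their symbols was taken, which gave 19 of the 21582 probes on the array. Rara had 6 probes, Rarg 5 and Rarb 2, and each of the other 6 genes had 1.

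Retinoic acid is made from vitamin A and acts inside the nucleus. It binds retinoic acid receptors, which sit on DNA as heterodimers with retinoid X receptors and switch from recruiting corepressors to recruiting coactivators. The binding proteins carry retinoic acid through the cytoplasm, Crabp2 towards the receptors and Crabp1 chiefly towards breakdown, and Cyp26a1 destroys it. Retinoic acid is known for patterning the developing nervous system and for driving neural progenitors to differentiate. Rarb and Cyp26a1 are themselves classic targets that retinoic acid induces.

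The neurospheres came from the cortex at gestational day 12.5 and grew without serum in DMEM/F-12 with bFGF and EGF at 20 ng/ml each, LIF at 0.15 ng/ml, insulin, transferrin, selenium, heparin and progesterone. The control cultures had no ethanol. The exposed cultures had 320 mg/dl ethanol in this medium for 5 days before differentiation. Differentiation was started in both by taking away EGF and LIF while bFGF was kept. For the exposed cultures it lasted 3 days, without ethanol. Control and exposed RNA were hybridised together on 8 two-colour arrays, with exposed RNA in Cy3 on 4 (replicates 1 to 4) and in Cy5 on 4 (replicates 5 to 8). The labels give neither the mouse strain nor the number of cultures behind the arrays, and p-values here reflect only how far arrays differ, which may be technical.

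The deposited value for a probe on an array is a log2 ratio of the 2 channels. Which channel was divided by which is not given in the sources used here. Each probe was therefore described by 2 quantities. The shared part is the mean of the 2 orientation means, and carries the ethanol effect if every ratio set the same condition on top. The turning part is the mean with exposed RNA in Cy5 minus the mean with exposed RNA in Cy3, divided by 2. It carries the ethanol effect if every ratio set the same dye on top. The remaining part would then be a dye effect. Signs are as deposited, relative to the array's median, and do not say whether exposed cells held more or less of a transcript.

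Between 75.4% and 87.1% of probes had a computable ratio on an array, and 15345 probes with at least 3 values in each orientation were tested. No intensities were used here, so a gene's level, and whether a cell type's markers were present, could not be read. Ratios sufficient for a test existed for 11 of the 11 neural progenitor markers with a probe, 7 of 10 neuronal, 8 of 9 astrocyte, 7 of 9 oligodendrocyte lineage, 4 of 7 microglial, 6 of 7 vessel (endothelial and mural), 3 of 7 meningeal fibroblast and 4 of 4 erythroid markers. As RNA came from whole cultures, fewer cells of a type and less RNA per cell cannot be told apart.

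The windows before the RefSeq starts of the members were read because receptor dimers bind direct repeats of a short core motif, and members that carry such a repeat can themselves answer to the receptors. The core motifs searched were AGGTCA, its variant AGTTCA, then GGGTCA, and also GGTTCA, as direct repeats spaced by 1, 2 or 5 bases (DR1, DR2 and DR5), on both strands of the 250 bases before each start. These windows were available for 8 of the 9 members, 15 windows in all, from RefSeq on GRCm38.p6. DR5 repeats, the spacing typical of retinoic acid response elements, were found for Rarb and Cyp26a1, in 2 of the 15 windows. Over all 32851 windows of this length a DR5 was present in 29, which is 0.0883%. As both genes were already known as classic targets of retinoic acid, setting these shares side by side is no test. No member window held a DR1 or a DR2 of these letters, which were present in 0.164% and 0.174% of all windows. Both windows are shown 5′ to 3′ on the gene's own strand, with the DR5 in capitals. The Rarb window is chr14:16575477-16575726 on the minus strand and the Cyp26a1 window chr19:37697558-37697807 on the plus strand.
Rarb: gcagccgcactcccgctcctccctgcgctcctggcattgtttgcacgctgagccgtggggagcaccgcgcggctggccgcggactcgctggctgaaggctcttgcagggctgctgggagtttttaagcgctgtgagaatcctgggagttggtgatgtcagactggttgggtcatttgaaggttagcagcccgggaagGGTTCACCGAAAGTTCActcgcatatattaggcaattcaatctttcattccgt
Cyp26a1: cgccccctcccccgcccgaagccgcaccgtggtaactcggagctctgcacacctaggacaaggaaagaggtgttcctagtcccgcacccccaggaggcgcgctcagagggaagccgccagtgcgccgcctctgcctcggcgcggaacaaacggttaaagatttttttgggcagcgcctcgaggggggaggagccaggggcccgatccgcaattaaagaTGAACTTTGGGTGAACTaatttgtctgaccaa

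The Rarb repeat, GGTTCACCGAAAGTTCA, runs on the gene's strand from 53 to 37 bases before the start. The Cyp26a1 repeat lies 32 to 16 bases before the start on the opposite strand, where it reads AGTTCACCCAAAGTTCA. Both end in the same core motif, AGTTCA. A match describes the letters and does not show binding.

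**Figure D1:**
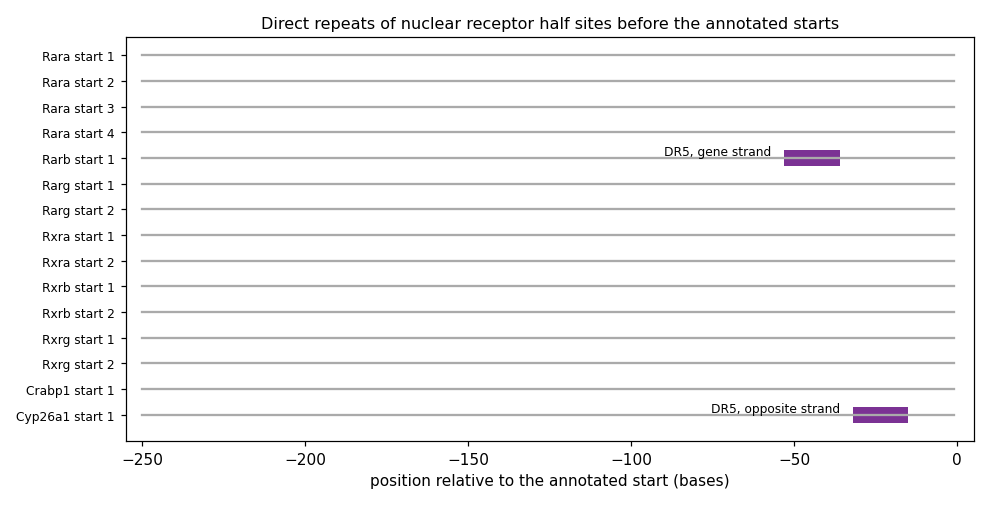
Direct repeats of nuclear receptor core motifs (purple) in the 15 windows of 250 bases before the annotated starts of 8 member genes, by distance from the start in bases. The Rarb repeat lies at 53 to 37 bases and the Cyp26a1 repeat at 32 to 16 bases before the start; the other 13 windows hold none.

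Of the 19 member probes 14 had enough values to be tested and 5 did not. No member passed an adjusted p of 0.05 in either part (limma, Benjamini-Hochberg over 15345 probes). In the shared part 0% of all tested probes passed, and in the turning part 1.56% did, 118 of the 239 positive and 121 negative (312 of 417 positive with the values as deposited). The smallest adjusted p among members was 0.278 in the shared part and 0.0923 in the turning part. At an unadjusted p under 0.05 there were 4 member probes in the shared part, where 13.9% of all tested probes lay, and 3 in the turning part, where 13.8% did. These 14 are the probes with enough ratios, not all members. Their shared part was negative for 10 and positive for 4, with a median of -0.45, against a median of -0.06 and 53.9% negative over all tested probes. Of the 14 probes 5 were of Rara and 3 of Rarg, so they do not count as separate genes. All of these but Rara X56571 were negative. The median size of the shared part regardless of sign was 0.69 for the members and 0.44 over all tested probes, and the median SE was 0.49 and 0.44. In the turning part 7 were positive and 7 negative, with a median of 0.04 against a median of 0.11 and 43.1% negative over all tested probes. No tested member probe kept to one side of 0 on all its arrays, where 3.57% of all tested probes did. The mean of a single orientation passed for no member either, while 0.906% of all tested probes passed with exposed RNA in Cy3 and 0.743% in Cy5.

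**Figure D2:**
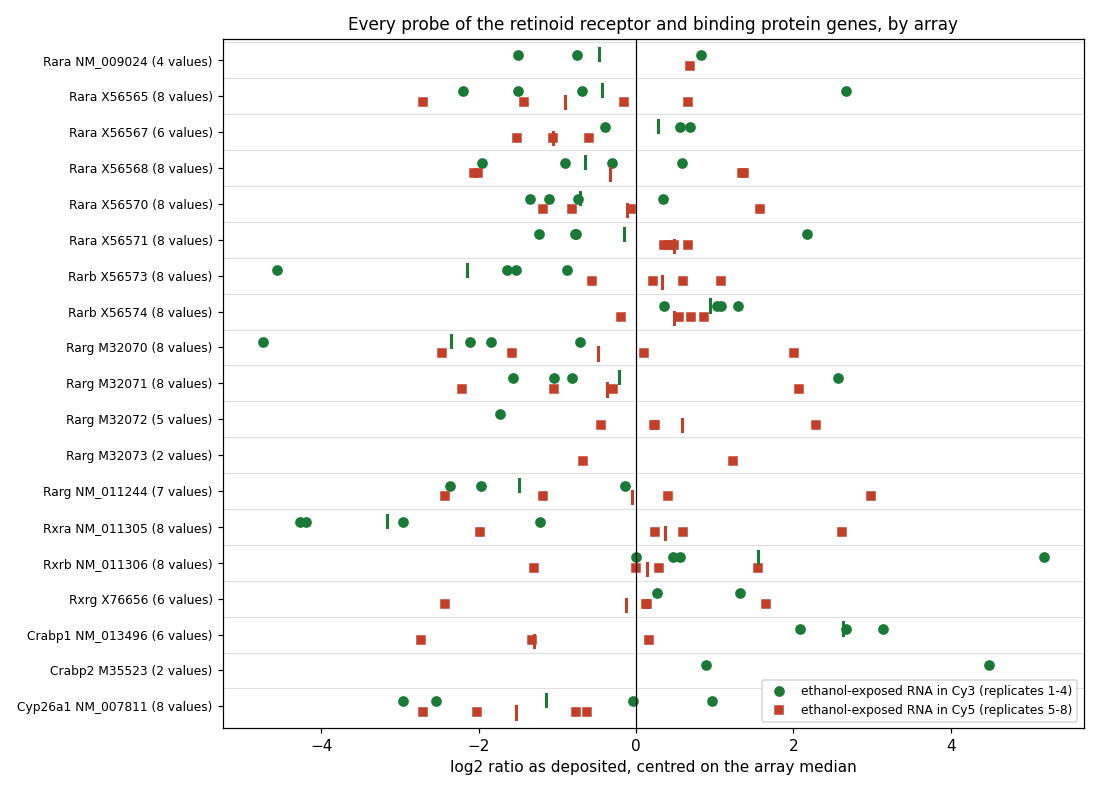
Centred log2 ratio of every member probe on each array, exposed RNA in Cy3 (green circles) and in Cy5 (red squares); vertical bars are the orientation means where at least 3 values exist. Among the tested probes, Crabp1, Rarb X56573 and Rara X56567 separate by orientation. Rxra reads -4.27 to -1.22 with exposed RNA in Cy3 and -1.98 to 2.62 in Cy5.

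Crabp1, of the binding proteins, showed the smallest p of any member in the turning part. Its probe NM_013496 read 2.08, 2.67 and 3.14 on replicates 2, 3 and 4, and -1.33, 0.16 and -2.74 on replicates 5, 7 and 8. It was listed at exactly 0 on replicates 1 and 6, which was taken as missing. The ranges of the orientations did not overlap: all 3 values with exposed RNA in Cy3 were above 2, and those in Cy5 reached only 0.16. The orientation means were 2.63 ± 0.53 and -1.30 ± 1.45 (SD, n = 3 each). The turning part was -1.97 ± 0.46 (SE of the fit, 6 arrays, 95% interval -3.02 to -0.92, limma unadjusted p = 0.00248), which ranked 413 of 15345 and did not pass (adjusted p = 0.0923). The shared part was 0.66 ± 0.46 (adjusted p = 0.537). With 3 values per orientation, no array with a value could be left out under the filter. With exact 0 kept as 0, the turning part was -1.55 (limma adjusted p = 0.168). Crabp2 could not be tested. Its probe M35523 gave ratios on replicates 1 and 2 only, at 0.89 and 4.49, and was listed at exactly 0 on the other 6 arrays. Probes with values on at most 2 arrays made up 2.83% of the array.

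Cyp26a1 had 1 of the larger shared parts among the members. Its probe NM_007811 read -2.97, 0.97, -2.55 and -0.04 on replicates 1 to 4 and -0.62, -2.71, -2.02 and -0.76 on replicates 5 to 8. It was thus below the array median on 7 of 8 arrays, with replicate 2 the exception, and the orientations overlapped throughout. The shared part was -1.34 ± 0.49 (95% interval -2.43 to -0.25, limma unadjusted p = 0.021, adjusted p = 0.278), and the turning part -0.19 ± 0.49 (adjusted p = 0.906). Across the alternatives its shared part lay between -1.69 and -1.03 and its adjusted p between 0.188 and 0.468.

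Rxra, which pairs with the retinoic acid receptors and with many other nuclear receptors, had the lowest mean of any tested member probe in a single orientation. It read -4.20, -4.27, -1.22 and -2.97 with exposed RNA in Cy3 and 0.59, 0.24, -1.98 and 2.62 in Cy5. The 4 arrays with Cy3 were all negative, while those with Cy5 lay on both sides of 0, and replicate 7 fell inside the Cy3 range. The orientation means were -3.16 ± 1.43 and 0.37 ± 1.89 (SD, n = 4 each). Its probe was the only one of the 14 with an unadjusted p under 0.05 in both parts: the turning part was 1.77 ± 0.52 (95% interval 0.60 to 2.93, limma unadjusted p = 0.00691, adjusted p = 0.15) and the shared part -1.40 ± 0.52 (95% interval -2.56 to -0.23, adjusted p = 0.29). When single arrays were left out, the turning part lay between 1.39 (adjusted p = 0.303, without replicate 8) and 2.16 (adjusted p = 0.0683, without replicate 7).

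Rxrb had 1 array far from the rest. The probe read 5.19, 0.56, 0.00 and 0.47 on replicates 1 to 4 and 0.00, -1.30, 1.55 and 0.29 on replicates 5 to 8. Apart from replicate 1, every array lay within 1.55 of its median. The shared part was 0.84 ± 0.58 (adjusted p = 0.531) and was 0.24 without replicate 1. Rxrg, the third gene of this family, gave too few ratios for a test. Its probe X76656 read 0.26 and 1.32 on replicates 2 and 3, and -2.43, 0.14, 1.65 and 0.13 on replicates 5 to 8.

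Rarb, the receptor gene with the DR5 printed above before its start, had probes that differed from each other. Probe X56573 read -4.56, -0.88, -1.64 and -1.53 with exposed RNA in Cy3 and 0.59, 1.08, 0.22 and -0.56 in Cy5. The orientations did not overlap, with every Cy3 array below every Cy5 array, and replicate 1 stood lowest. Its turning part was 1.24 ± 0.43 (95% interval 0.29 to 2.20, limma unadjusted p = 0.0155, adjusted p = 0.222) and was 0.84 without replicate 1. Probe X56574 read 1.03, 1.29, 1.08 and 0.36 with Cy3 and 0.54, 0.70, 0.86 and -0.19 with Cy5. That probe was above the array median on 7 of 8 arrays and its orientations overlapped. Its shared part was 0.71 ± 0.28 (95% interval 0.08 to 1.34, adjusted p = 0.313) and its turning part -0.23 ± 0.28 (adjusted p = 0.773). The shared part of X56573 was -0.91 ± 0.43 (adjusted p = 0.377), opposite in sign to that of X56574, and was -0.51 without replicate 1.

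Rarg was represented by 5 probes, of which 3 could be tested. Probe M32070 read -2.11, -4.75, -1.85 and -0.72 with exposed RNA in Cy3 and 2.01, -1.58, -2.47 and 0.10 in Cy5, negative on 6 of 8 arrays with overlapping orientations. Its shared part, -1.42 ± 0.56, was the most negative of the member probes (95% interval -2.68 to -0.17, limma unadjusted p = 0.0301, adjusted p = 0.313). Probe M32071 read 2.56 on replicate 1 and 2.07 on replicate 6 and was negative on the other 6 arrays, for a shared part of -0.29 ± 0.56 (adjusted p = 0.841), which was 0.01 without replicate 5 and -0.76 without replicate 1. Probe NM_011244, with 7 values, ranged from -2.43 on replicate 5 to 2.99 on replicate 6 and had a shared part of -0.78 ± 0.63 (adjusted p = 0.601), which was -0.38 without replicate 5 and -1.28 without replicate 6. The shared parts of the 3 tested probes were all negative, and M32070 alone had an interval that left out 0. Of the untested probes, M32072 gave 5 ratios from -1.73 to 2.29, and M32073 gave 2, at 1.23 and -0.67. M32073 was also at the array's highest value on 2 arrays and at exactly 0 on 4, all taken as missing.

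Rara, the most broadly expressed of the retinoic acid receptors, had 5 tested probes, and none had an unadjusted p under 0.05 in either part. Their shared parts were -0.67 ± 0.56 for X56565, -0.49 ± 0.50 for X56568, -0.42 ± 0.38 for X56570, -0.39 ± 0.36 for X56567 and 0.16 ± 0.40 for X56571. Adjusted p-values in the shared part lay between 0.618 and 0.883. Single arrays moved these values: X56565 ran from -1.19 without replicate 3 to -0.37 without replicate 2 or 5, X56568 from -0.78 without replicate 8 to -0.20 without replicate 7, and X56570 from -0.70 without replicate 6 to -0.24 without replicate 7. The shared part of X56571 was -0.23 without replicate 3, where its value was 2.17 while the rest of the Cy3 orientation lay between -1.24 and -0.77. Probe X56565 also read high on replicate 3, at 2.67, against -2.20 to -0.69 on the other 3. X56567, with 6 values, read -0.40 to 0.69 with exposed RNA in Cy3 and -1.52 to -0.60 in Cy5. Those ranges did not overlap, and the turning part was -0.67 ± 0.36 (adjusted p = 0.476). With Crabp1 and Rarb X56573 it made 3 of the 14 tested member probes without overlap, where 10.9% of all tested probes had none. That share covers probes with 3 or 4 values per orientation. Crabp1 and X56567 had 3, with which ranges separate more easily than with 4. The untested Rara probe NM_009024 gave 4 ratios from -1.50 to 0.83.

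**Figure D3:**
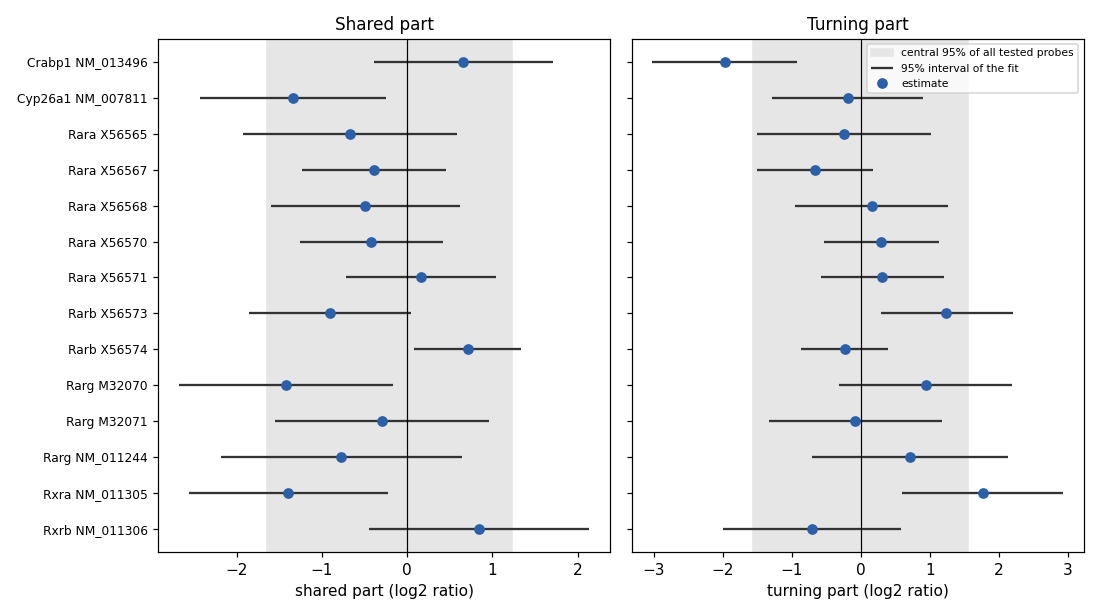
Shared part (left) and turning part (right) of the 14 tested member probes in log2 units, with the 95% interval of the fit (lines); the grey band holds the central 95% of all 15345 tested probes. In the shared part all 14 estimates lie inside the band, and in the turning part Crabp1 at -1.97 and Rxra at 1.77 lie outside it.

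Probes of the same receptor gene were set against each other by how they deviated from their orientation's mean over the 8 arrays, as a description. Over the 8 pairs of fully measured probes of Rara, Rarb and Rarg, the Pearson correlation of these deviations had a median of 0.32 and ran from -0.24 to 0.82. Over 462 such pairs from 325 genes the median was 0.14 (quartiles -0.18 and 0.45). The closest were Rara X56565 and X56571 at 0.82 and X56565 and X56568 at 0.77. In the first of these pairs replicate 3 was high for both. Rarb X56573 and X56574 stood at 0.20 and Rarg M32070 and M32071 at -0.24. Several of these receptor genes are transcribed from more than 1 start, and RefSeq gave 4 windows for Rara and 2 for Rarg. Probe sequences were not used here, so which transcript forms a probe reads was not tested.

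**Figure D4:**
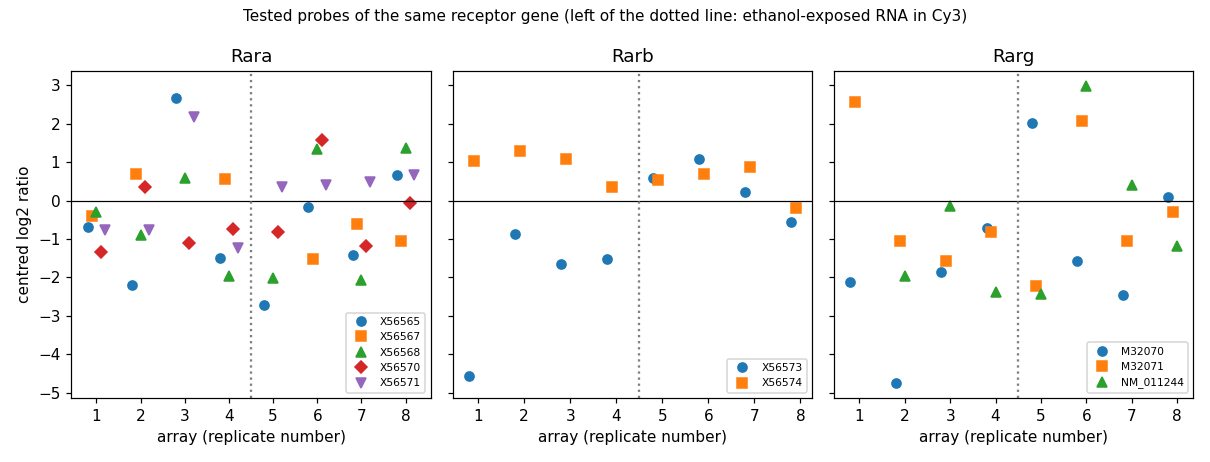
Centred log2 ratios of the tested probes of Rara, Rarb and Rarg on each of the 8 arrays, a symbol and colour per probe, with exposed RNA in Cy3 left of the dotted line. The Rarb probes lie apart with Cy3 (-4.56 to -0.88 against 0.36 to 1.29) and together with Cy5, and Rara X56565 and X56571 are both high on replicate 3.

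The pathway around the receptors was described through 5 lists. They held 56 tested genes. In the shared part none passed (limma), as for all 11397 genes tested, and 12.5% had an unadjusted p under 0.05, against 14.1% of all genes tested. In the turning part 4 of the 56 passed, or 7.14%, against 1.45% of all genes tested. The lists were chosen with earlier results of these data known, so setting these shares side by side is no test. Without the arrays whose codes end in r only 1 of these 4 genes passed, and Ppara was not tested. In that setting 0.688% of all tested probes passed. Genes of retinoid supply, the enzymes that make, store or break down retinoids, had 18 tested of 26, with a shared median of 0.15 (11 positive, 7 negative) and a turning median of -0.26. Adh4, an alcohol dehydrogenase that can oxidise retinol as well as ethanol, passed at -4.39 ± 0.47 in the turning part (adjusted p = 0.000595), though not without the 3 arrays whose codes end in r (adjusted p = 0.0633). Aldh8a1, a retinal dehydrogenase, had the smallest shared p of this list, at -1.50 ± 0.43 (7 arrays, adjusted p = 0.228). It was negative on every array with a value, from -3.69 to -0.50.

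Retinoid transport had 6 tested of 9, with a shared median of -0.01 and a turning median of 0.19, and none passed in either part. Stra6, the membrane receptor that takes up retinol, read -2.46 to -0.32 on replicates 1 to 4 and -2.29 to 0.09 on replicates 5 to 8. It was below the median on 7 of 8 arrays, with a shared part of -1.22 ± 0.38 (adjusted p = 0.232). Rbp4, which carries retinol in plasma, had a turning part of -1.68 ± 0.58 (7 arrays, adjusted p = 0.233).

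Partners that share Rxr proteins had 8 tested of 13, with a shared median of 0.22 and a turning median of -0.30, and 2 passed in the turning part. Nr4a2, an orphan receptor needed for dopamine neurons, read 3.69, 6.85, 1.68 and 3.47 with exposed RNA in Cy3 and -1.57, -2.50, -0.46 and -3.86 in Cy5. Every array of one orientation was positive and every array of the other negative. The turning part was -3.01 ± 0.56 (adjusted p = 0.0275). The call ended without replicate 1, 4, 6 or 8 (adjusted p = 0.0646, 0.064, 0.0817 and 0.082), with each array's highest value kept (0.0603) and without the arrays whose codes end in r (0.105). Ppara, the fatty acid receptor, read 2.23, 2.85, 4.32 and 1.56 with Cy3 and -0.74, -2.79 and -1.49 on replicates 5, 6 and 8. It separated the orientations in the same way, with a turning part of -2.21 ± 0.43 (7 arrays, adjusted p = 0.0425). Of the 18 alternatives 13 gave Ppara a value, since with 3 values in Cy5 it left the test without replicate 5, 6 or 8, without the arrays whose codes end in r and with values required on all arrays. The call ended without replicate 1, 2 or 3 (adjusted p = 0.0763, 0.0937 and 0.0687) and with the values as deposited (0.0646), exact 0 kept (0.0596), the highest value kept (0.0739) or at least 2 values per orientation (0.0625).

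Cofactors of the receptors had 12 tested of 16, with a shared median of -0.04 and a turning median of 0.33. The coactivator Ncoa3 passed in the turning part at 7.50 ± 0.37 (limma adjusted p = 3.41e-06), on the only probe of the gene. It read -7.73 to -4.93 with exposed RNA in Cy3 and 8.21 to 9.47 in Cy5. As no intensities were used, how much signal either channel held on that probe could not be read. Ncoa3 also had the smallest shared p of the list, at 1.38 ± 0.37 (adjusted p = 0.206). Retinoic acid target genes outside the members had 12 tested of 24, with a shared median of 0.01 and a turning median of 0.05, 6 positive and 6 negative in each part, and none passed. The homeobox gene Meis1 had the smallest turning p there, at 1.47 ± 0.49 (6 arrays, adjusted p = 0.226), and the growth factor receptor Pdgfra the smallest shared p (adjusted p = 0.368), negative on 7 of 8 arrays. Of the 28 genes with a DR5 before a start, 5 were tested, Rarb and Cyp26a1 among them, and none passed. The shared median was -0.32 and the turning median -0.17. Rarb was represented by X56573, with a shared part of -0.91, while its other probe X56574 had 0.71. The shared median thus depends on which probe stands for Rarb. Over all 11397 genes tested the medians were -0.04 and 0.10.

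**Figure D5:**
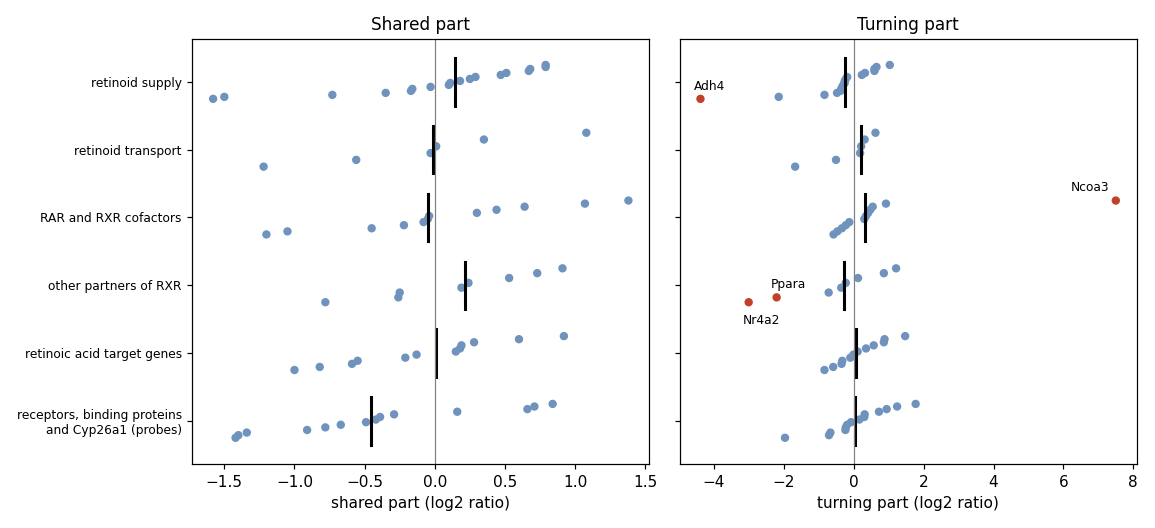
Shared and turning parts, in log2 units, of the tested genes of 5 retinoid pathway lists (1 probe a gene) and of the 14 tested member probes; black bars are medians and red points passed an adjusted p of 0.05. Only Adh4, Nr4a2, Ppara and Ncoa3 are red, all in the turning part.

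No cell type marker passed in either part. In the shared part astrocyte markers had a median of -0.84 with 7 of 8 negative, oligodendrocyte lineage markers -0.48 with 4 of 7, neuronal markers -0.18 with 5 of 7, and neural progenitor markers 0.53 with 4 of 11 negative. Medians were -0.19 for microglia, -0.14 for vessel cells, -0.05 for meningeal fibroblasts and -0.15 for erythroid cells. Over all 11397 genes tested the shared median was -0.04, with 5972 negative. In the turning part medians were -0.17 for astrocyte, 0.35 for oligodendrocyte lineage, 0.39 for neuronal and -0.04 for neural progenitor markers. For microglia, vessel cells, meningeal fibroblasts and erythroid cells they were 0.63, 0.00, -0.09 and 0.12, and over all genes tested 0.10. The part of these cell types in the member values was not tested.

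For each of the 11 member probes with values on all arrays, the probe of another gene with the most similar profile over the 8 arrays was looked up among 8676 to 8679 fully measured probes with 1 symbol. The best Pearson correlations lay between 0.94 and 0.98 over 8 points that share the 2 orientations, each being the highest found in the search. They were with Rbm20 for Rxra (0.98), Sec22b for Cyp26a1 (0.96), Lcp2 for Rarb X56573 (0.97), Vmn1r11 for Rarb X56574 (0.95), Tsn for Rarg M32071 (0.98) and Bloc1s1 for Rxrb (0.94).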

How the data were processed

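The authors deposited 1 table of log2 ratios, 1 value per probe and array, from total RNA that was labelled with Cy3 and Cy5, per the labels' protocols. The scanner, the background correction, the normalization and the direction of division stay unknown: not given in the sources used here. Below a ratio of 0.1, every value on every array matches a 3-decimal ratio on the log2 scale, shifted by a constant of that array, within 0.0011. Values of exactly 0 (2565 to 5200 per array) and each array's single highest value (108 to 464) were taken as missing. The table was read as deposited and each array was then centred on its median. These medians lay between -0.435 and -0.324 with exposed RNA in Cy3 and between 0.023 and 0.516 in Cy5. Centring thus took a shift between the orientations out of the turning part. The median turning part over all tested probes was 0.11, and 0.42 with the values as deposited. Probes with at least 3 values per orientation entered linear models in limma 3.58.1 under R 4.3.3 (lmFit, then eBayes), with Benjamini-Hochberg adjustment over all 15345 and a threshold of 0.05. SEs and 95% intervals come from that moderated fit, and an array without a value is dropped for that probe. Precision is limited by how many arrays there are. The fit was tested on simulated data with independent normal noise of the fitted spread. Such data follow the fit's own assumptions, so that run cannot show whether the arrays meet them.

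Gene names are those of the platform annotation, which can be old, updated by Entrez number through the GRCm38.p6 table: 16635 of 21582 probes had 1 symbol, 113 several and 4834 none, and 15957 matched by number. In gene lists, the probe with the most values stood for a gene. All 9 members were named with every probe. From the lists, genes that passed and the gene with the smallest p per part were named, and for each member the most similar profile, of which some are given. Members and lists were chosen with earlier results of these data known. Of the alternatives, centring, scaling, missing values, the filter, robust eBayes, leaving out arrays and a replicate block were tried.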

Additional observations from a re-analysis of the deposited data

Results flagged for a closer look

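In 2 of the 25 sets of 4 values examined (a member probe in 1 orientation), a single array stood further from the rest than Dixon's 95% limit, where chance alone gives about 1 in 20. For Rxrb it was replicate 1, at 5.19, while the rest of the Cy3 orientation lay between 0.00 and 0.56. For Rara X56571 it was replicate 3, at 2.17, with the rest between -1.24 and -0.77.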

How the results depend on the processing

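Of the 18 alternatives, 10 gave values for Crabp1 and Rara X56567 and 13 for Rarg NM_011244, which had too few values for the filter in the others. No member probe passed in either part under any alternative that tested it; the shared-part count of pathway genes stayed at 0 as well. The number of pathway genes past the threshold in the turning part, 4, was 2 with each array's highest value kept. It was 2 to 4 when single arrays were left out, and 1 without the 3 arrays whose codes end in r, where Ppara was not tested. Over all probes, 239 passed in the turning part, 417 with the values as deposited, 152 without replicate 8, 156 without replicate 4 and 79 without the arrays whose codes end in r; in the shared part 0 passed, and 1 with the highest value kept. Of the 28 member quantities 21 kept their sign in each alternative that gave them a value. With the values as deposited the turning parts of Cyp26a1, Rara X56565, Rarb X56574 and Rarg M32071 were 0.13, 0.08, 0.09 and 0.24. That setting differs only in leaving out the centring. The turning median over all tested probes was 0.11 with centring and 0.42 without it. Without the arrays whose codes end in r the shared parts of Rara X56571, Rarg M32071 and Adh4 were -0.18, 0.18 and -0.22, and the turning parts of Rara X56565 and X56568 were 0.01 and -0.15. When single arrays were left out, the turning part ran from -0.49 to 0.16 for Cyp26a1, from -0.53 to 0.28 for Rara X56565, from -0.13 to 0.44 for Rara X56568, from -0.49 to 0.38 for Rarg M32071, from -0.01 to 0.39 for Stra6 and from -0.06 to 0.57 for Pdgfra. The shared part ran from -0.23 to 0.34 for Rara X56571, from -0.76 to 0.01 for Rarg M32071 and from -0.16 to 0.50 for Adh4. What lay behind the changes with arrays left out was not tested. Arrays with the same number in their codes, 3 pairs, did not deviate together (correlations 0.0137, -0.0157 and 0.0442), and with these pairs as a replicate block 243 probes passed in the turning part, no member among them.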
